A study of Saccharomyces cerevisiae with 4 samples.

Results

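Target of rapamycin complex 2 (TORC2) and the kinases around it were followed in Saccharomyces cerevisiae after acetic acid. The genes were chosen by systematic name: TOR2 (YKL203C), AVO1 (YOL078W), AVO2 (YMR068W) and TSC11 (YER093C) of the complex, the adaptor genes SLM1 (YIL105C) and SLM2 (YNL047C), the kinase genes YPK1 (YKL126W) and YPK2 (YMR104C), and the upstream kinase genes PKH1 (YDR490C) and PKH2 (YOL100W). All 10 were among the 5799 genes of the deposited table, and the rule names them and uses no measured value, although they were chosen with earlier results of these data known. The strain was BY4741, haploid and MATa, with his3Δ1, leu2Δ0 and met15Δ0 alleles and a deletion of URA3, whose allele number the labels write differently on each array. Both the control and the treated cultures carried these alleles; untreated cells came from rich medium (YPD), and treated cells from the same medium after 2 h in 30 mM acetic acid. On 4 two-colour arrays, treated and untreated RNA were hybridised together. Arrays are named by the dye of the treated RNA and by their labelled number: Cy5 arrays 1 and 2, and Cy3 arrays 1 and 2 with the dyes swapped. The submitters describe 4 biological replicates, but do not say whether same-numbered arrays share RNA.

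TORC2 is a plasma membrane kinase complex built around Tor2. In yeast it senses membrane tension and sphingolipid shortage, and it phosphorylates the kinases Ypk1 and Ypk2, which in turn control sphingolipid synthesis, lipid flipping between membrane leaflets and glycerol balance. The pathway is known to be needed for tolerance of acetic acid. It works through phosphorylation, which RNA ratios do not measure.

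The deposited values were taken as log2 ratios of treated over untreated RNA, so that 1 stands for a doubling, and signs below follow that reading. The direction is likely and not stated: the means of 8 of 8 tested targets of the weak-acid factor Haa1 lay above 0, with a median of 3.17, and 6 of them passed the test. These targets were chosen with earlier results of these data known. On Cy3 array 1, GPG1 (-0.858) and INM1 (-0.645) lay below 0. Base 2 is an assumption as well, and another base would change every fold. A ratio carries no expression level, so the abundance of these RNAs could not be seen, and a change in a few cells cannot be told apart from a smaller change in all of them. The arrays had medians from -0.028 to 0.01 and SDs from 0.697 to 1.049; Cy3 array 1 was the widest and had the lowest correlations with the others (Pearson's r across genes from 0.411 to 0.62). Genes deleted in the strain also carried ratios away from 0: URA3 had -0.391 and -0.155 on the Cy5 arrays and -1.938 and -0.317 on the Cy3 arrays, a mean of -0.70 ± 0.83 (SD, n = 4; limma adjusted p = 0.188), and MET17 (the met15Δ0 locus) had 0.115 on Cy5 array 1 and -2.576 on Cy3 array 1. HIS3, which carries the his3Δ1 allele, had 0.475 and -0.641 on the Cy5 arrays and -0.274 and 0.31 on the Cy3 arrays. Its mean was -0.03 ± 0.52 (SD, n = 4, limma adjusted p = 0.933). LEU2 was not among the genes of the deposited table. Of these deleted genes, URA3 thus had a mean near that of PKH2 below (-0.68). On Cy3 array 1, the widest array, the MET17 value was lower than that of AVO1 below (-2.337). The URA3 value on that array (-1.938) was lower than the AVO1 mean (-1.50).

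No gene of the set passed the test, and only 5 of the 10 had enough values to be tested at all. AVO2, TSC11, SLM2, YPK2 and PKH2 had values on 4 arrays. TOR2, AVO1, SLM1 and PKH1 had values on 2 arrays, and YPK1, the main Ypk kinase gene, on 1. Genes with values on fewer than 3 arrays made up 50% of the set against 8.76% of all genes in the table and 8.89% of 45 other genes of the pathway. Of 40 possible values 29 were present, and the shortfall was greatest on Cy3 array 2, where 5 of the 10 genes had no value and 11.5% of all genes had none. TOR1 and KOG1, which encode the other Tor kinase and the defining subunit of TORC1, were likewise present only on Cy5 array 2 and Cy3 array 1, the same 2 arrays as TOR2 and PKH1. The untested members had a median coding length of 2301 bases and the tested ones 2034, against 1693.5 and 1209 for untested and tested genes of the whole table. Why a value is missing is not given in the sources used here.

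**Figure D1:**
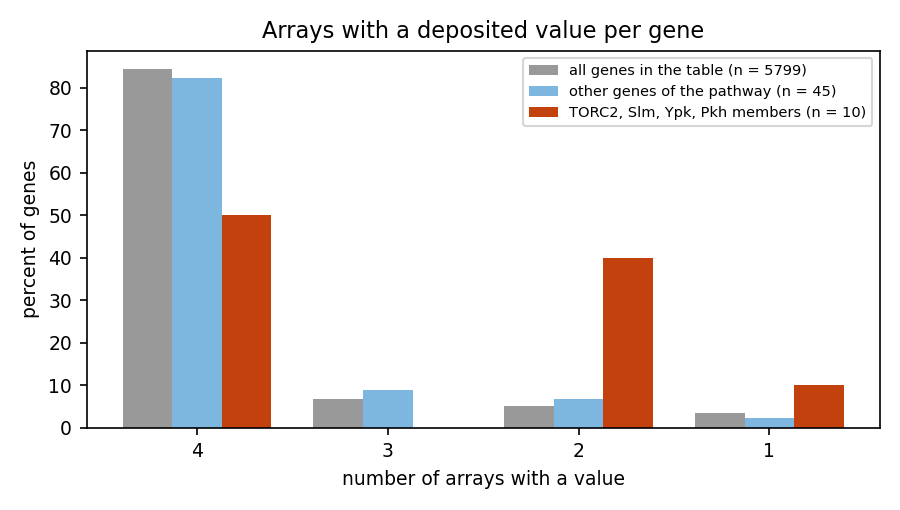
Percent of genes (vertical axis) by the number of arrays with a deposited value (horizontal axis), for all 5799 genes, for 45 other genes of the pathway and for the 10 TORC2, Slm, Ypk and Pkh genes. The set had 5 genes with 4 values, 4 genes with 2 and 1 gene with 1.

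The limma fit was made on all 5291 genes with at least 3 values, with Benjamini-Hochberg adjustment over them and a threshold of 0.05. Of the 5 tested members 0 passed, where 10.9% of all tested genes did (8.85% higher, 2.02% lower). Higher genes made up 81.4% of all calls, and 66.9% after quantile normalization. At an unadjusted p under 0.05 there was 1 member, SLM2, against 29.8% of all tested genes. The median over the 5 was -0.03, beside -0.04 over all genes tested. With so few members these counts set no limit on the pathway as a whole, and the interval of each gene is the more useful measure.

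Within the complex itself, TOR2, the catalytic kinase subunit, had log2 ratios of -0.424 on Cy5 array 2 and -1.392 on Cy3 array 1. Both lay below 0, at percentiles 17.4 and 11.7 of their arrays. AVO1, whose protein holds the membrane-binding domain of the complex, had -0.668 on Cy5 array 1 and -2.337 on Cy3 array 1. These were at percentiles 6.45 and 3.78. When genes with only 2 values were also admitted, TOR2 had a mean of -0.91 ± 0.68 (SD, n = 2; limma adjusted p = 0.164) and AVO1 a mean of -1.50 ± 1.18 (SD, n = 2; limma adjusted p = 0.132), so neither passed. In that fit 10% of 5592 genes were called.

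TSC11, also called AVO3, encodes the Rictor counterpart that joins Tor2 to the other subunits. Its ratios were -0.164 and -0.338 on Cy5 arrays 1 and 2 and 0.2 and -0.203 on Cy3 arrays 1 and 2. They were close together on both sides of 0, with a mean of -0.13 ± 0.23 (SD, n = 4; limma adjusted p = 0.6). The 95% interval ran from -0.49 to 0.24, the narrowest of the 5, and 75.4% of genes with 4 values had a larger SD.

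AVO2, a non-essential subunit with ankyrin repeats, was the most variable member. Its ratios were -1.723 and 0.409 on the Cy5 arrays and -0.123 and 1.308 on the Cy3 arrays, each pair in the order of the array numbers. Both arrays numbered 1 lay below 0 and both numbered 2 above. Opposite signs between the array numbers, in either direction, were seen for 6.45% of the 4896 genes with 4 values. The mean was -0.03 ± 1.27 (SD, n = 4; limma adjusted p = 0.968), with an interval from -1.13 to 1.07. Only 1.88% of genes had a larger SD, and without Cy5 array 1 the mean was 0.53. The mean over the arrays therefore says little about AVO2, which stood at percentile 0.41 of Cy5 array 1 and 94.5 of Cy3 array 2.

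**Figure D2:**
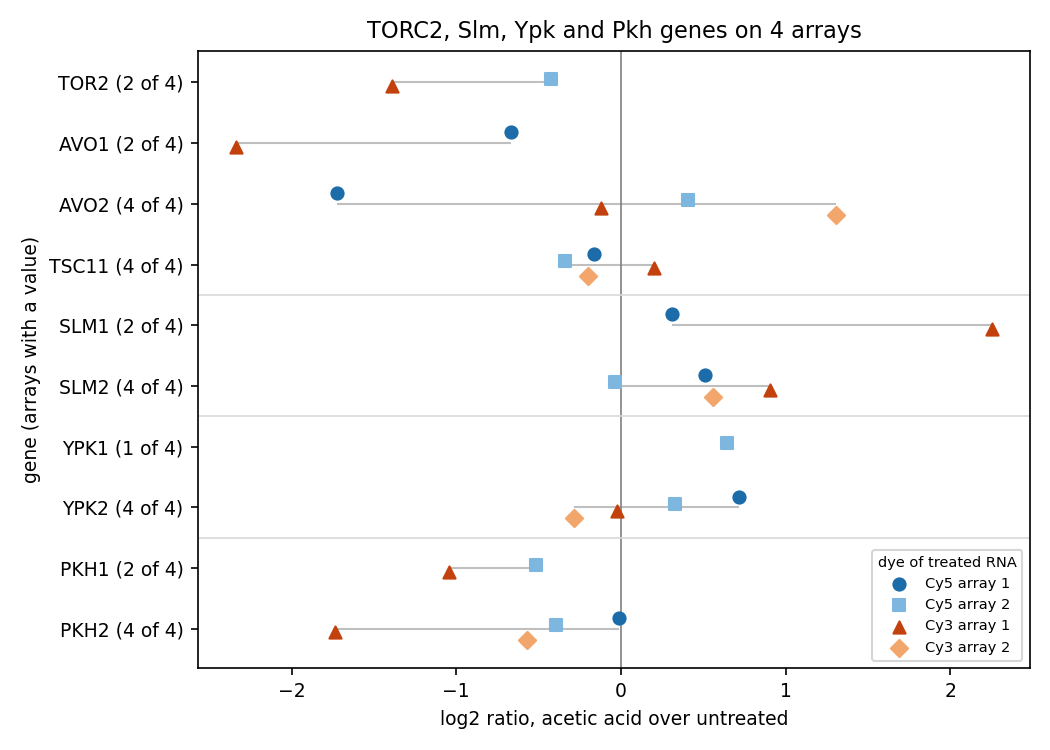
Log2 ratio of acetic acid over untreated RNA (horizontal axis) of each gene (vertical axis, with the number of arrays that gave a value); symbols stand for the 4 arrays and grey lines join the lowest and highest value. TSC11 spans 0.54 and AVO2 3.03, and for TOR2, AVO1, SLM1, SLM2, PKH1 and PKH2 the value farthest from 0 came from Cy3 array 1.

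Slm1 and Slm2 are related proteins that bind phosphatidylinositol 4,5-bisphosphate and bring Ypk1 to TORC2. SLM2 had ratios of 0.51 and -0.037 on Cy5 arrays 1 and 2 and 0.907 and 0.56 on the Cy3 arrays. Of the 4 values 3 lay above 0 and the other was near 0. The mean was 0.49 ± 0.39 (SD, n = 4), a 1.4-fold ratio, with a 95% interval from 0.03 to 0.94; the limma p was 0.0388 before and 0.145 after adjustment, so the gene did not pass. SLM1 had 0.31 on Cy5 array 1 and 2.252 on Cy3 array 1. The latter was at percentile 98.9 of its array and the highest value of any member. Its mean was 1.28 ± 1.37 (SD, n = 2), and it did not pass when genes with 2 values were admitted (limma adjusted p = 0.197).

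For the Ypk kinases, the direct targets of TORC2, little can be said of YPK1. Its single value was 0.645, on Cy5 array 2, at percentile 84.4. YPK2, its paralogue, had 0.717 and 0.325 on Cy5 arrays 1 and 2 and -0.026 and -0.286 on the Cy3 arrays. The dye orientations did not overlap, with both Cy5 values above 0 and both Cy3 values below. Opposite signs between the orientations, in either direction, were seen for 8.21% of genes with 4 values. The mean was 0.18 ± 0.44 (SD, n = 4; limma adjusted p = 0.56), with an interval from -0.30 to 0.66. The dye term of a second limma fit, which takes the difference between orientations, did not pass for YPK2 (limma adjusted p = 0.665) or for the other tested members (adjusted p from 0.665 to 0.842); 0.227% of all genes passed it.

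Pkh1 and Pkh2 are counterparts of mammalian PDK1 that phosphorylate the activation loop of the Ypk kinases. PKH2 had -0.011 and -0.393 on Cy5 arrays 1 and 2 and -1.734 and -0.568 on the Cy3 arrays. All 4 lay below 0, the first by very little; PKH2 was the 1 member of the 5 with the same sign on 4 arrays, which 42.2% of genes with 4 values had (19.3% all below 0). The mean was -0.68 ± 0.74 (SD, n = 4; limma adjusted p = 0.172), with an interval from -1.37 to 0.02. Without Cy3 array 1 the mean was -0.32. PKH1 had -0.513 on Cy5 array 2 and -1.042 on Cy3 array 1. Its mean was -0.78 ± 0.37 (SD, n = 2), and it did not pass when genes with 2 values were admitted (limma adjusted p = 0.145).

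**Figure D3:**
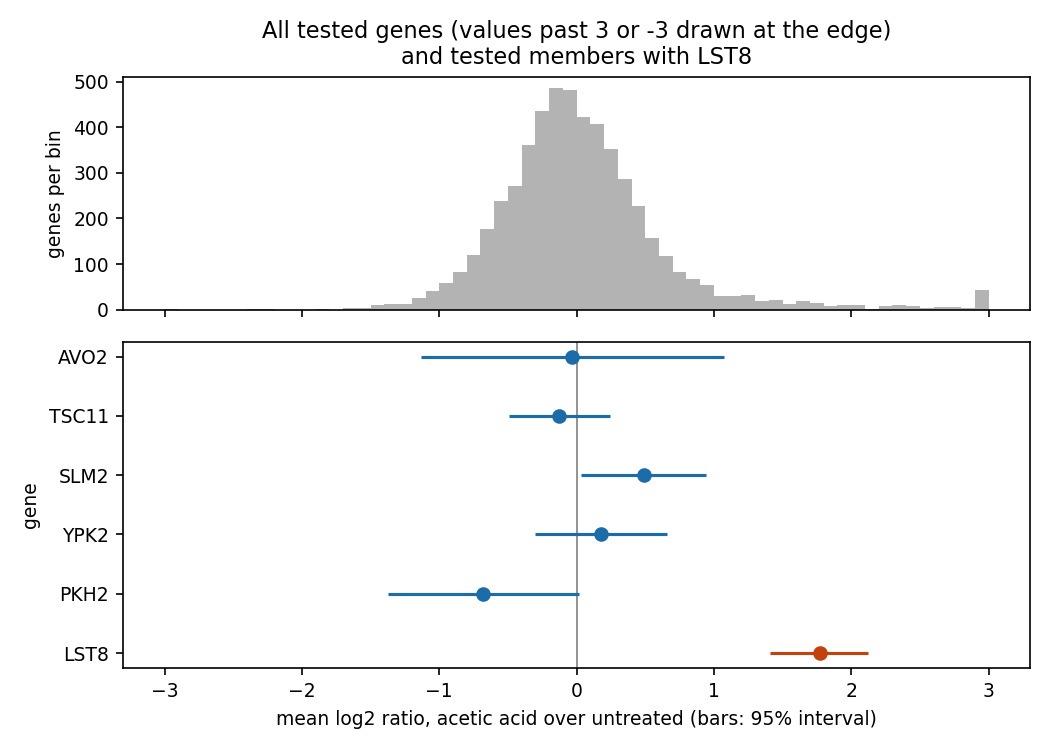
Top, number of genes (vertical axis) by mean log2 ratio (horizontal axis) for the 5291 tested genes; bottom, mean log2 ratio with its 95% limma interval for the 5 tested members and for LST8, the subunit that TORC2 shares with TORC1. The intervals of AVO2, TSC11, YPK2 and PKH2 include 0, that of SLM2 begins at 0.03 and that of LST8 lies wholly above 1 (1.41 to 2.12).

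The 3 paralogue pairs could be compared on few arrays. SLM1 minus SLM2 gave -0.20 on Cy5 array 1 and 1.345 on Cy3 array 1, a mean difference in log2 ratio of 0.57 ± 1.09 (SD, n = 2). PKH1 minus PKH2 gave -0.12 on Cy5 array 2 and 0.692 on Cy3 array 1, a mean of 0.29 ± 0.57 (SD, n = 2). In both pairs the sign differed between the 2 arrays, and an exact two-sided sign-flip permutation test gave p = 1 (1 after adjustment) where 2 arrays cannot go below 0.5. YPK1 minus YPK2 was 0.32 on the 1 array that held both. Whether the probes tell these similar genes apart is not given in the sources used here.

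Across arrays, Cy3 array 1 held 9 members, 6 below 0 and 3 above, and ranged from -2.337 to 2.252. Cy5 array 2 held 8, 5 below and 3 above, from -0.513 to 0.645. Cy5 array 1 held 7, with 4 below and 3 above, and Cy3 array 2 held 5, with 3 below and 2 above. The wider range on Cy3 array 1 went with the larger SD of that array: in units of the array's own SD, AVO1 stood at -2.24 and SLM1 at 2.14 there, and AVO2 at -2.48 on Cy5 array 1. Besides leaving that array out, the arrays were scaled to equal spread or quantile normalized. In both fits 0 members passed, and the mean of PKH2 was -0.58 and -0.54, against -0.68 in the reported fit. The 4 members with 2 values (TOR2, AVO1, SLM1 and PKH1) had the same sign on both arrays, which 71.4% of the 301 genes with 2 values also had.

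Of the subunits outside the set, the one that TORC2 shares with TORC1 rose. LST8, encoding a WD-repeat protein that binds the Tor kinase domain, had ratios of 1.549 and 2.035 on Cy5 arrays 1 and 2 and 1.685 and 1.796 on the Cy3 arrays. The values lay close together and far above 0, with a mean of 1.77 ± 0.21 (SD, n = 4), 3.4-fold (limma adjusted p = 0.00111). BIT2, a minor TORC2 subunit gene, had -0.03 ± 0.29 (SD, n = 3; limma adjusted p = 0.932), and its paralogue BIT61 a single value of 0.473. In TORC1 and for its substrate kinase Sch9, 0 of 2 tested genes passed, where 10.9% of all tested genes did. TCO89, a TORC1 subunit gene, had a mean of -0.91 ± 0.94 (SD, n = 4, limma adjusted p = 0.144), from -0.211 to -2.285, and -0.45 without Cy3 array 1. SCH9 had -0.13 ± 0.26 (SD, n = 4, limma adjusted p = 0.596), with 2 values above 0 and 2 below.

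Of 51 other genes of the pathway in 10 groups, 45 were in the table and 41 tested. Of these, 5 rose, 1 fell and 35 did not pass, with a median of -0.12; after quantile normalization 5 were higher and 5 lower. Over all genes tested 10.9% were called (8.85% higher, 2.02% lower), and the small groups below are to be read against that share. The counts changed when an array was left out: 3 genes were called without Cy5 array 1 or without Cy5 array 2, 2 without Cy3 array 2, and 11 without Cy3 array 1 (9 higher, 2 lower). LST8 and SFK1 passed in each of these fits. Among 5 genes of the kinases that make the phosphoinositides bound by Slm1 and Slm2, or of partners of these kinases, 2 rose. SFK1, which encodes a membrane protein that acts with the phosphatidylinositol 4-kinase Stt4, had values of 1.481 and 1.625 on the Cy5 arrays and 1.526 and 1.226 on the Cy3 arrays, and rose by 1.46 ± 0.17 (SD, n = 4; limma adjusted p = 0.00186). YPP1, encoding a subunit of the Stt4 complex, rose by 0.66 ± 0.24 (SD, n = 4; limma adjusted p = 0.0436), but did not pass without Cy5 array 1, Cy5 array 2 or Cy3 array 2 (limma adjusted p = 0.134, 0.107 and 0.186), where its mean was 0.72, 0.74 and 0.57, or with same-numbered arrays averaged (limma adjusted p = 0.106). The kinase genes did not pass: STT4 had -0.34 ± 0.37 (SD, n = 4; limma adjusted p = 0.255) and MSS4, which makes the 4,5-bisphosphate, -0.04 ± 0.30 (SD, n = 3; limma adjusted p = 0.897). EFR3, the remaining gene of the group, went the other way from SFK1 and YPP1 and did not pass. Its mean was -1.07 ± 1.48 (SD, n = 4, limma adjusted p = 0.218), with 4 values from -0.305 to -3.291.

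Among 6 tested genes of glycerol control and endocytosis, a group that holds several Ypk1 substrates, 2 rose. MUK1, encoding an exchange factor for Rab5-type GTPases, had 2.096 and 0.936 on the Cy5 arrays and 1.97 and 1.805 on the Cy3 arrays, and rose by 1.70 ± 0.52 (SD, n = 4; limma adjusted p = 0.0064; 0.0539 without Cy3 array 2). GPD1, of glycerol synthesis, rose by 0.57 ± 0.13 (SD, n = 4), close to the threshold (limma adjusted p = 0.0485). It did not pass without Cy5 array 1, Cy5 array 2 or Cy3 array 2 (limma adjusted p = 0.157, 0.172 and 0.189), where its mean was 0.61, 0.52 and 0.55, with same-numbered arrays averaged (0.147) or with a dye term (0.0584). Of 3 flippase genes 1 fell, DNF1. It had -1.327 and -0.862 on the Cy5 arrays, -2.037 on Cy3 array 1 and no value on Cy3 array 2. The mean was -1.41 ± 0.59 (SD, n = 3; limma adjusted p = 0.0323). Without Cy5 array 1 or Cy5 array 2, only 2 of its values remained, with means of -1.45 and -1.68 (limma adjusted p = 0.136 and 0.0621). Leaving out Cy3 array 2 removed no DNF1 value and kept the mean at -1.41. The limma adjusted p of 0.0702 there reflects the fit of the other genes. DNF2 had -0.64 ± 0.57 (SD, n = 4; limma adjusted p = 0.13). KIN82, for a kinase that activates these flippases, had the lowest mean of the pathway genes tested, -1.89 ± 1.52 (SD, n = 4), with 4 values from -0.515 to -4.022 all below 0, and did not pass (limma adjusted p = 0.0756); without Cy3 array 1 its mean was -1.18 and it passed (limma adjusted p = 0.0261).

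The sphingolipid arm, the best known output of Ypk1, gave 0 calls among 7 tested genes, with a median of -0.23; at 10.9% called over all genes, 0 of 7 is near the background. ORM2, an inhibitor of serine palmitoyltransferase that Ypk1 phosphorylates, had 1.044 and 0.938 on the Cy5 arrays and 0.311 and 0.326 on the Cy3 arrays; the mean was 0.65 ± 0.39 (SD, n = 4; limma adjusted p = 0.0766; 0.0374 without Cy3 array 1). Its paralogue ORM1 had 1.248 and 0.725 on the Cy5 arrays and -2.186 and -0.944 on the Cy3 arrays, so that the orientations did not overlap. Such opposite signs, in either direction, were seen for 8.21% of genes with 4 values. The ORM1 mean was -0.29 ± 1.57 (SD, n = 4, limma adjusted p = 0.747, limma dye term adjusted p = 0.195). No gene passed among 5 of the eisosome and its membrane compartment (SUR7 at -0.68 ± 0.50, SD, n = 4; limma adjusted p = 0.0962), 4 of the calcineurin branch (CMP2 at 0.70 ± 0.55, SD, n = 4; limma adjusted p = 0.108) or 5 of the Rho1 and Pkc1 branch (PKC1 at -0.54 ± 0.16, SD, n = 4; limma adjusted p = 0.0627). Each named gene is the one with the smallest p and does not stand for its group. The eisosome genes had a median of 0.33, with 3 above 0 and 2 below. The calcineurin genes had a median of 0.15, with 2 above and 2 below. The Rho1 and Pkc1 genes had a median of -0.36, with 2 above and 3 below. At an unadjusted p under 0.05 there were 21 of the 41, against 29.8% of all tested genes.

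**Figure D4:**
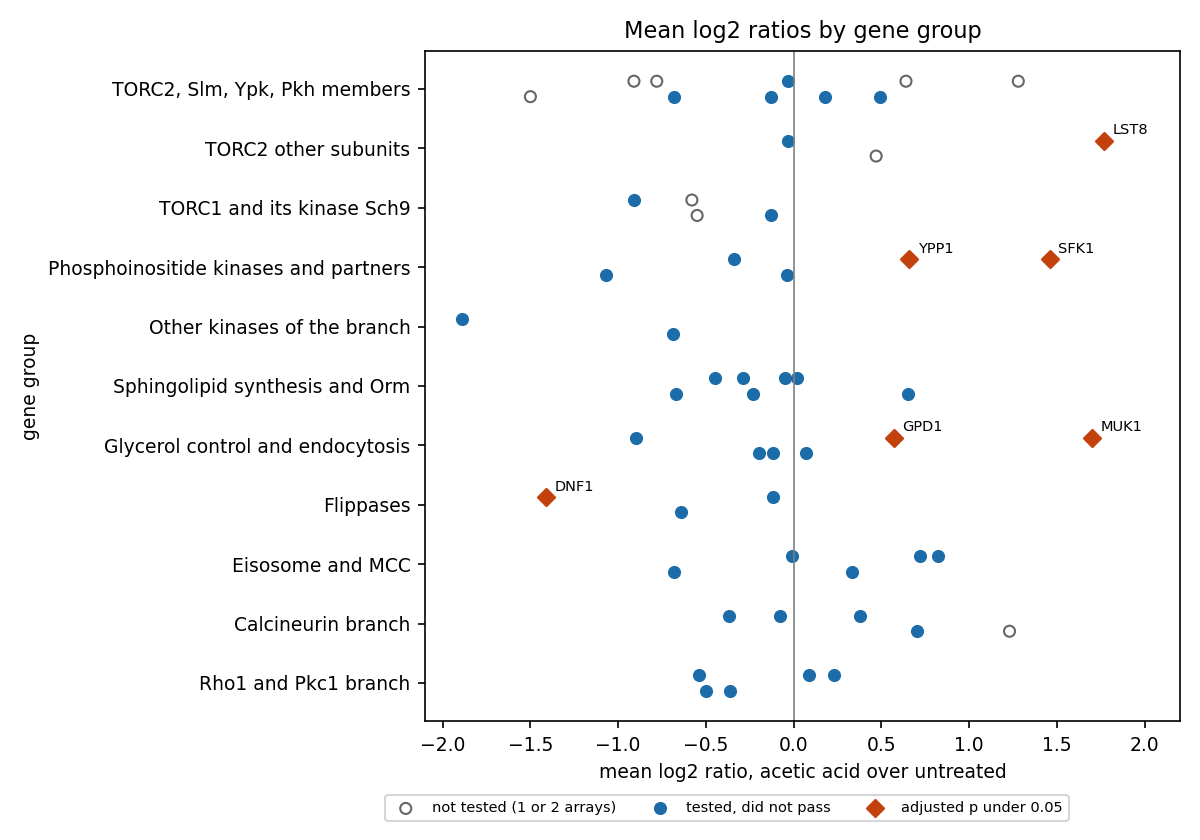
Mean log2 ratio (horizontal axis) of the 10 TORC2, Slm, Ypk and Pkh genes and of 10 groups of other pathway genes (vertical axis); open circles were not tested, filled circles did not pass, and diamonds passed an adjusted p of 0.05. LST8, SFK1, MUK1, YPP1 and GPD1 passed above 0 and DNF1 below.

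By the mean absolute difference over the 4 arrays, the genes with ratios most like SLM2 among 4895 others were VPS21 (0.067), SIR1 (0.077) and CTI6 (0.086), and those most like PKH2 were YIL059C (0.082), RTA1 (0.097) and YGR219W (0.104). VPS21 encodes a Rab5-type GTPase, and its values were 0.535 and 0.005 on the Cy5 arrays and 0.875 and 0.73 on the Cy3 arrays. These are matches of 4 values among many genes and describe the pattern only.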

How the data were processed

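Treated and untreated RNA shared each of 4 two-colour arrays, after acid-phenol extraction and indirect labelling per the labels' protocols. The authors deposited 1 log ratio per gene and array, taken here as log2. Scanner, background correction, normalization, log base, direction and the reason for missing values were not given in the sources used here. Arrays of opposite dye orientation correlated above 0, so no sign was flipped. The members and gene lists, the Haa1 targets included, were chosen with earlier results of these data known.

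Of 5799 names, 5316 matched locus tags of assembly R64, which gave symbols, coding lengths and neighbours. Ratios of genes with at least 3 values were tested against 0, two-sided, in R 4.3.3 by lmFit and eBayes of limma 3.58.1 (3.34 prior degrees of freedom). No list was tested as a set. Named genes were all members, up to 3 called genes per group of other pathway genes (or the 1 with the smallest p), and the 3 genes nearest in pattern to the 2 members with the smallest p. Further genes are named beside these and were chosen after their values were seen. Alternatives were centring, scaling, a dye term, the replicate number as a block, means of same-numbered arrays, quantile normalization, other minimums of values, robust or no shared variance, a minimum fold of 1.5 and leaving out each array. Same-numbered arrays' deviations correlated at 0.252, while the correlation estimated for the replicate block was -0.109. With 2 pairs, neither value can show whether a pairing exists. In simulated ratios for 5291 genes of the acid comparison, 200 genes were changed. Of those changed by a log2 ratio of 1, 47% were recovered, and 88% of those changed by 2. Of 143 genes called, 8 were false. These shares hold for the simulated ratios only. The number of arrays limits the precision.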

Additional observations from a re-analysis of the deposited data

Results flagged for a closer look

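AVO2 differed between the replicate numbers: its mean log2 ratio on the arrays numbered 1 minus that on the arrays numbered 2 was -1.78, with both arrays of each number on their own side of 0. The difference was not tested. YPK2 differed between the dye orientations, with a mean log2 ratio 0.68 higher on the Cy5 arrays than on the Cy3 arrays and the orientations on opposite sides of 0; the dye term did not pass (limma adjusted p = 0.665). ORM1 had the same kind of split, with both values above 0 on the Cy5 arrays and both below on the Cy3 arrays, as given above.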

How the results depend on the processing

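No tested member passed in any of the 15 alternatives run, where 10.9% of all tested genes passed in the reported fit. The alternatives tested the same 5 members, except that admitting genes with 2 values tested 9. YPK1, with 1 value, was tested in none, so these fits say little about the untested members. The smallest limma adjusted p values were 0.0884 for PKH2 (quantile normalization), 0.109 for SLM2, 0.266 for TSC11, 0.348 for AVO2 and 0.404 for YPK2. The 4 tested members other than AVO2 kept the sign of their mean or stood at 0, with ranges of -0.90 to -0.32 for PKH2, 0.34 to 0.66 for SLM2, -0.24 to -0.06 for TSC11 and 0.00 to 0.34 for YPK2. AVO2 changed sign, to 0.53 without Cy5 array 1, and ranged from -0.48 over the fits that leave out an array; 1 array thus sets its sign. The number of members called was 0 with the replicate block too, which left 733 genes called in all (against 575) and 7 other genes of the pathway (against 6). The correlation estimated for the block was -0.109, below 0. That fit therefore treats same-numbered arrays as less alike than independent ones, the opposite of an allowance for shared RNA. With same-numbered arrays averaged, 5 other genes of the pathway were called, 3 higher and 2 lower. PKC1 passed under the block (adjusted p = 0.0449) but not with averaging (0.159). After quantile normalization the paralogue differences were 0.29 for YPK1 minus YPK2 (against 0.32), 0.08 for PKH1 minus PKH2 (against 0.29) and 0.83 for SLM1 minus SLM2 (against 0.57).

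Over all genes, 377 passed with same-numbered arrays averaged, 204 with no shared variance and 168 against a minimum fold of 1.5, and 187 to 899 when an array was left out, the last without Cy3 array 1. Quantile normalization called 809, 66.9% of them higher, against 81.4% in the reported fit. Among the other genes of the pathway, the calls were 10 after quantile normalization (5 higher, 5 lower), 2 with no shared variance, 3 against the minimum fold, and 2 to 11 when an array was left out: 3 without Cy5 array 1 or 2, 2 without Cy3 array 2 and 11 without Cy3 array 1. LST8 and SFK1 passed in all 15 alternatives, with adjusted p up to 0.0296 each. MUK1 lost its call in 2, YPP1 in 6, GPD1 in 8 and DNF1 in 5 of the 14 that could test it, while KIN82 passed in 5, ORM2 and PKC1 in 2 and TCO89 in 1. For DNF1, 1 of these 5 left out Cy3 array 2, on which it has no value. The cause of these changes was not tested. The table gives no signal over background.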

Other observations

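Neighbours on the chromosome were looked up in the reference table after the values were seen. LST8 is transcribed divergently from SIS1, which encodes a J-domain co-chaperone of Hsp70, and SIS1 rose by 2.49 ± 0.33 (SD, n = 4; limma adjusted p = 0.00048). YPP1 is divergent from SNG1, which also rose, by 1.18 ± 0.43 (SD, n = 4; limma adjusted p = 0.0158). PKH2 is divergent from IZH4, which rose by 1.11 ± 0.57 (SD, n = 4; limma adjusted p = 0.0341) while PKH2 had a mean below 0; its other neighbour, SDD3, fell to -0.67 ± 0.27 (SD, n = 4; limma adjusted p = 0.0484). YPK2, at 0.18, lies between YMR103C, which rose by 2.32 ± 0.25 (SD, n = 4; limma adjusted p = 0.000438), and the phosphoglucomutase gene PGM2, which rose by 0.90 ± 0.40 (SD, n = 4; limma adjusted p = 0.0341). In all, 6 of 29 tested neighbours of the members and of the called pathway genes passed, against 10.9% of all genes; they were not tested as a set.

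The calcineurin-dependent transcription factor gene CRZ1 had 1 and 1.459 on Cy5 arrays 1 and 2 and no value on the Cy3 arrays; with genes of 2 values admitted it did not pass (limma adjusted p = 0.0606).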
